A study of Mus musculus with 2 samples.

Results

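The Bcl2 family of survival and death genes was examined in LT-HSC (long-term haematopoietic stem cells, the marrow cells that rebuild the blood over a long time) of WASH knockout and control mice. The genes were chosen by name from a list of 10: Bcl2, Bcl2l1 and Mcl1 (survival), Bax and Bak1 (effectors), and Bcl2l11, Bid, Bad, Bbc3 and Pmaip1 (BH3-only). Of these, 9 were found, with 23 of the 44170 sequences on the array. No array sequence of Bbc3 was analysed here. The knockout group was 1 array of sorted LT-HSC from C57/BL6 mice labelled as knockout for WASH, and the control group was 1 array of sorted LT-HSC labelled as wild type of the same strain. The labels give no allele, Cre driver, age, sex or number of animals for either group. Cells came from femur marrow of mice kept free of specific pathogens and were purified by flow cytometry, and their total RNA was labelled with Cy3 for a NimbleGen mouse array. With 1 array per genotype there are no replicates, so no difference below has a replicate error or a p-value. A size of 2-fold (1 on the log2 scale) or more was used as a fixed size and is no test.

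Bcl2 family proteins decide at the outer mitochondrial membrane whether a cell dies by apoptosis. Bax and Bak form pores there that release cytochrome c. Bcl-2, Bcl-xL (from Bcl2l1) and Mcl-1 hold them in check, and BH3-only proteins, which sense stress, either block the survival proteins or activate Bax and Bak directly. In blood formation, Mcl-1 is needed by stem cells and neutrophils, and Bcl-xL by maturing red cell precursors.

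The values are RMA intensities, which have been background-corrected, normalised between arrays and summarised over the probes of each sequence. Both arrays had similar distributions, with medians of 137 each. Random-sequence probes gave a background level of 75.7 on the knockout array and 71.3 on the control array. A sequence counted as in the detected range when it exceeded the array median on 1 array or both. Levels are compared only between the arrays, never between sequences, because probes differ in their response. The single sequence of Washc1, the targeted gene, was at 107 in the knockout and 119 in the control. The files do not place its probes relative to the deletion, so it does not check the labels. Of 10 stem cell markers, 7 were above the random level on the knockout array and 7 on the control array, while Procr, Fgd5 and Tek were above it on neither. Of all 44170 sequences, 28412 were above the random level on both arrays, so these marker counts alone do not identify the cells. Among lineage markers, 10 erythroid genes summed to 82707 on the knockout array and 15383 on the control array, and 10 granulocyte and monocyte genes to 53687 and 139092, with no gene of either list below the random level on both arrays. Bright sequences weigh most in these sums, such as Hbb-b1 at 43218 in the knockout and 5699 in the control. In the second sum S100a8 was at 16696 in the knockout and 47334 in the control.

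Across the family, 2 members stood out with higher values in the knockout, the survival gene Bcl2l1 and the BH3-only gene Bcl2l11, the second mostly as bounds against background. The survival gene Mcl1, the effector gene Bax and the BH3-only gene Bid had lower values, short of 2-fold with their brightest sequences. Bcl2, Bak1, Bad and Pmaip1 differed less. By its brightest sequence, 3 of 9 genes were higher in the knockout and 6 were lower, where 51.7% of all genes in the detected range were higher. Of the 6, Pmaip1 lay outside that range. Over the 23 sequences, 11 were higher and 12 lower. In the detected range, 4 of 17 member sequences were at least 2-fold higher and 1 was at least 2-fold lower, against background shares over all sequences in that range of 6.77% for higher and 8.20% for lower. The higher sequences were all of Bcl2l1 or Bcl2l11, and the lower one was of Mcl1. Sequences of 1 gene are read from the same RNA and do not count as separate members. Of these 5 sequences, 2 entered the detected range only through the knockout array and 1 only through the control array, so they had to differ to be counted. Among the 15 member sequences above the random level on both arrays, 2 were at least 2-fold higher, both of Bcl2l1, and none was 2-fold lower; the shares over all such sequences were 4.62% and 5.56%.

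**Figure D1:**
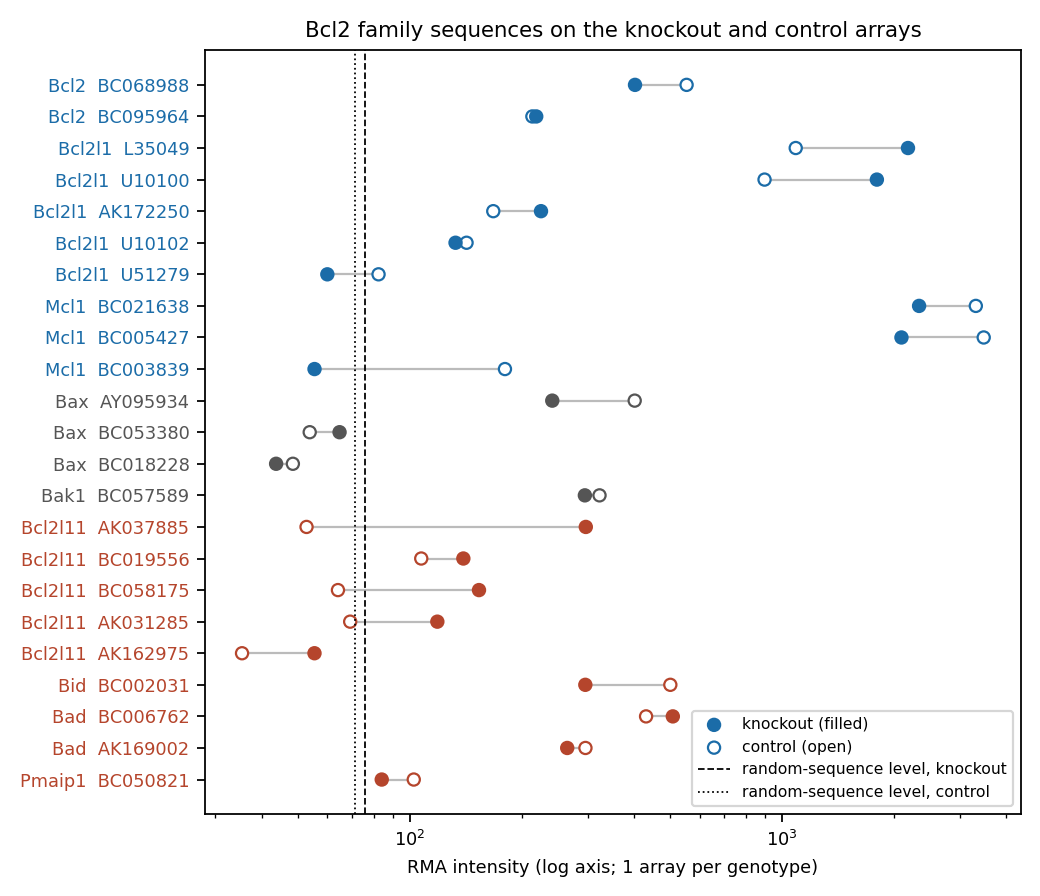
RMA intensity (log axis) of each of the 23 Bcl2 family sequences on the knockout array (filled) and the control array (open), coloured by role, with the random-sequence level of each array as a vertical line. The bright Bcl2l1 sequences lie to the right in the knockout (2178 against 1088 for L35049), those of Mcl1 lie to the left (2333 against 3315 for BC021638), and most Bcl2l11 control values lie below the random level.

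Bcl2l1 encodes Bcl-xL, which restrains Bax and Bak, and by splicing also the shorter Bcl-xS, which promotes death. The sequence L35049, annotated as Bcl-xL (chromosome 2, 152606403 to 152656368, MM9), was at 2178 in the knockout and 1088 in the control, 2.003-fold higher. U10100, annotated as the short form, was at 1797 in the knockout and 897 in the control, 2.004-fold higher. Both bright sequences thus gave nearly the same ratio, and whether they share probes or transcripts is not known here. Such a difference was found for 2.42% of all sequences above the 75th percentile of both arrays. AK172250, a further sequence over the whole locus, was at 225 in the knockout and 167 in the control, a log2 difference of 0.43. U10102, annotated as a form without the transmembrane segment, was at 133 in the knockout and 142 in the control (-0.10). U51279, annotated as Bcl-x-beta, spans only 2.51 kb of the locus and was at 60.0 in the knockout, not above the random level there, and at 82.3 in the control. The 4 sequences above the random level on both arrays therefore ran from -0.10 to 1.003, with an SD between them of 0.53. Sequences of 1 gene differed by a pooled SD of 0.66 over the 4969 genes that had more than 1 detected sequence. The bright sequences lay at the 2-fold size itself: centring the arrays on their medians put L35049 at 0.996, and the mean over all sequences in place of the brightest gave 0.38. Beside Bcl2l1, the 10 erythroid markers were all higher in the knockout, 8 of them at least 2-fold, with a median of 1.88. The part of erythroid RNA in the Bcl2l1 difference was not tested, and in sorted bulk samples a change in the share of a cell type and in RNA per cell cannot be told apart.

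Mcl1 encodes a short-lived survival protein that binds Bak and Bim. BC021638 (chromosome 3, 95462714 to 95467101) was at 2333 in the knockout and 3315 in the control, 1.42-fold lower. BC005427 was at 2092 in the knockout and 3480.3 in the control, 1.66-fold lower. The third sequence, BC003839, was at 55.4 in the knockout, not above the random level, and at 180.0 in the control, so it was at least 2.38-fold lower. The log2 differences of the pair measured on both arrays were -0.51 and -0.73, and the third sequence gives only its bound. The difference of Bcl2l1 minus that of Mcl1, by their brightest sequences, was 1.51 on the log2 scale. Beside Mcl1, 9 of 10 granulocyte and monocyte markers were lower in the knockout, 4 of the 8 in the detected range at least 2-fold, with a median over those 8 of -1.17; their part in the Mcl1 difference was not tested.

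Bcl2, which encodes the founding survival protein of the family, had a pair of sequences that disagreed. BC068988, which spans 1.02 kb (chromosome 1, 108608741 to 108609756), was at 402 in the knockout and 554 in the control, a log2 difference of -0.46. BC095964, which spans the locus over 172 kb (108438317 to 108610521), was at 218 in the knockout and 213 in the control, a difference of 0.03. The lower value in the knockout was thus seen with the short sequence only.

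Bcl2l11 encodes Bim, a BH3-only protein that binds all the main survival proteins and is known for removing blood cells deprived of growth factors. The measured values of all 5 sequences were higher in the knockout, but 4 of them were not above the random level on the control array, and 1 of these was above it on neither. AK037885 (chromosome 2, 127951773 to 127956744) was at 297 in the knockout and 52.7 in the control, at least 4.16-fold higher against the random level. BC058175, which ends at the same base, was at 153 in the knockout and 64.0 in the control, at least 2.15-fold higher. AK031285 was at 118 in the knockout and 69.1 in the control, at least 1.66-fold higher. The remaining short sequence, AK162975, was at 55.4 in the knockout and 35.4 in the control and not above the random level on either array, so no fold is given. These 4 sequences cover at most 5.46 kb at the upstream end of the gene. BC019556, the one sequence over the whole locus (32.6 kb, to 127984362), was above the random level on both arrays, at 139 in the knockout and 107 in the control, a log2 difference of 0.38. The size of the Bcl2l11 difference therefore depended on the sequence read, and the largest value was a bound against background.

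**Figure D2:**
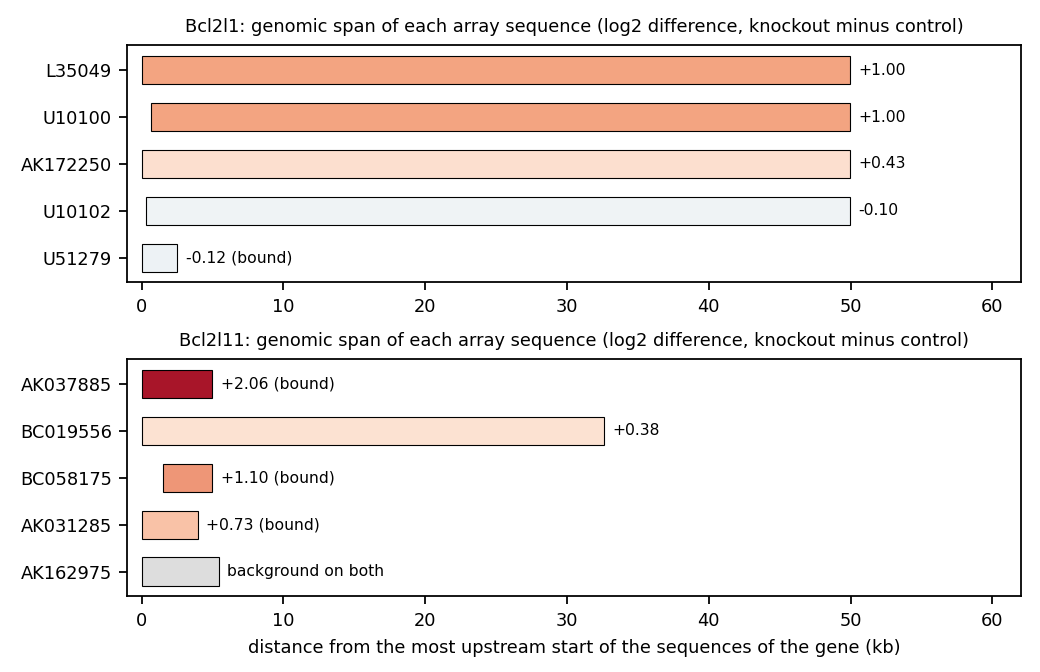
Genomic span of each array sequence of Bcl2l1 (top) and Bcl2l11 (bottom), in kb from the most upstream start of the gene's sequences, coloured and labelled by the log2 difference, knockout minus control, or by its bound where 1 array was not above the random level (grey where neither was). For Bcl2l11, 3 short upstream sequences carry bounds of at least 2.06, 1.10 and 0.73 and the sequence over the whole locus a difference of 0.38; for Bcl2l1, sequences with nearly the same span range from -0.10 to 1.003. Spans are those of the transcripts; where the probes lie within them is not given.

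Bcl2l1 and Bcl2l11 had the highest values in the knockout relative to the control. For each of them 1 promoter window is shown beside that of Mcl1, whose brightest sequences were both lower. Bcl2l1 and Bcl2l11 have further listed start sites, whose windows are not shown. Each runs from 250 bases before to 50 after a start site, from RefSeq on GRCm38.p6, whose coordinates are not those of MM9. Capitals mark matches on either strand to a motif. The motifs searched were AGATAA, bound by GATA factors, then TGTTTAC, bound by FOXO forkhead factors, and finally TTCNNNGAA, bound by STAT factors. No window held more than 1 match.

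Bcl2l1, chr2:152828440-152828739, minus strand: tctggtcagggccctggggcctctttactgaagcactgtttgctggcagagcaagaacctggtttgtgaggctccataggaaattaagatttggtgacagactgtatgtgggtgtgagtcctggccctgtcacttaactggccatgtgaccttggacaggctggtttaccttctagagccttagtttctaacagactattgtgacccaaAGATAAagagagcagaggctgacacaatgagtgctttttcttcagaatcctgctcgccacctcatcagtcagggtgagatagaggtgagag
Bcl2l11, chr2:128125788-128126087, plus strand: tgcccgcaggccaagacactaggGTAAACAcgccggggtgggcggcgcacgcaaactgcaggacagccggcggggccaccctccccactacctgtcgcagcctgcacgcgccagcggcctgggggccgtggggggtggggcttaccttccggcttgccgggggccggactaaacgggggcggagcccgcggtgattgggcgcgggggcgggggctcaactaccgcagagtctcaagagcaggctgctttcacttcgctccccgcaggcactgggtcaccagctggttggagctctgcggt
Mcl1, chr3:95658471-95658770, plus strand: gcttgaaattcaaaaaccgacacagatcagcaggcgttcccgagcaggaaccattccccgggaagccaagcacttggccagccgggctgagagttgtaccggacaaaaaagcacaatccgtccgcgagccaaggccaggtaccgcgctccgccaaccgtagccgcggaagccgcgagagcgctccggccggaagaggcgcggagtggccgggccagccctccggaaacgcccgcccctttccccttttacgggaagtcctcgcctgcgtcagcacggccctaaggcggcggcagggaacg

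The Bcl2l1 window shown held AGATAA, starting 41 bases before its start site, and the windows at the 2 other listed start sites of Bcl2l1 held none. The window shown is thus the one with a match, and it lies at the most downstream of these start sites. From which start site the bright Bcl2l1 sequences are transcribed was not determined, as their MM9 spans were not matched to these windows. The AGATAA match is therefore not tied to those sequences. The first Bcl2l11 window held the FOXO motif, 227 bases before the start site, and of the other family genes only Bbc3 had a window with it. No STAT motif lay in any of the 15 windows of 9 family genes that were searched, which included Bbc3 and left out Pmaip1. Of all 32851 promoter windows, 11.2% held AGATAA, 3.65% TGTTTAC and 8.30% TTCNNNGAA. These matches describe letters in the windows and show nothing about binding in these cells.

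Among the effectors, Bax had 1 sequence in the detected range. AY095934 (chromosome 7, 52717064 to 52722145), annotated as the kappa isoform, was at 241 in the knockout and 402 in the control, 1.67-fold lower. The other Bax sequences, BC053380 at 64.7 in the knockout and 53.8 in the control and BC018228 at 43.7 in the knockout and 48.5 in the control, were not above the random level on either array and so give no second reading. Bak1, the partner effector, was at 295 in the knockout and 323 in the control (chromosome 17, 27156756 to 27165523), a log2 difference of -0.13. The effector median was -0.43 and the survival median -0.46, where the median of all genes in the detected range was 0.03. These medians rest on few genes. With the dimmest sequence standing for each gene, Bax and Bcl2l1 left the range, and the medians were -0.13 for effectors (Bak1 alone) and -0.83 for survival genes (Bcl2 and Mcl1). With a filter at the 75th percentile the effector median was -0.74 (Bax alone) and the survival median -0.46.

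The other BH3-only members did not follow Bcl2l11. Bid, which links death receptors and caspase-8 to mitochondria, was at 296 in the knockout and 501 in the control (chromosome 6, 120843136 to 120866838), 1.69-fold lower with its single sequence. Bad, which is held inactive by growth factor signalling, had a pair of sequences of opposite sign: BC006762 was at 508 in the knockout and 431 in the control (0.24), and AK169002 was at 265 in the knockout and 296 in the control (-0.16). Pmaip1, which encodes Noxa, a p53 target that binds Mcl-1, was at 84.0 in the knockout and 102 in the control (-0.29), outside the detected range on both arrays and only 1.11 times the random level in the knockout and 1.44 times in the control. Over the 3 BH3-only genes in the detected range the median was 0.24. It rests on Bcl2l11, whose brightest sequence entered that range only through the knockout array: Bid and Bad alone, which are left with the 75th percentile filter, gave -0.26. With Pmaip1 included the median was -0.02. Survival and BH3-only genes therefore did not separate by direction, as each role held members higher and lower in the knockout. Both effectors, Bax and Bak1, were lower by their brightest sequences, as were some members of each other role.

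**Figure D3:**
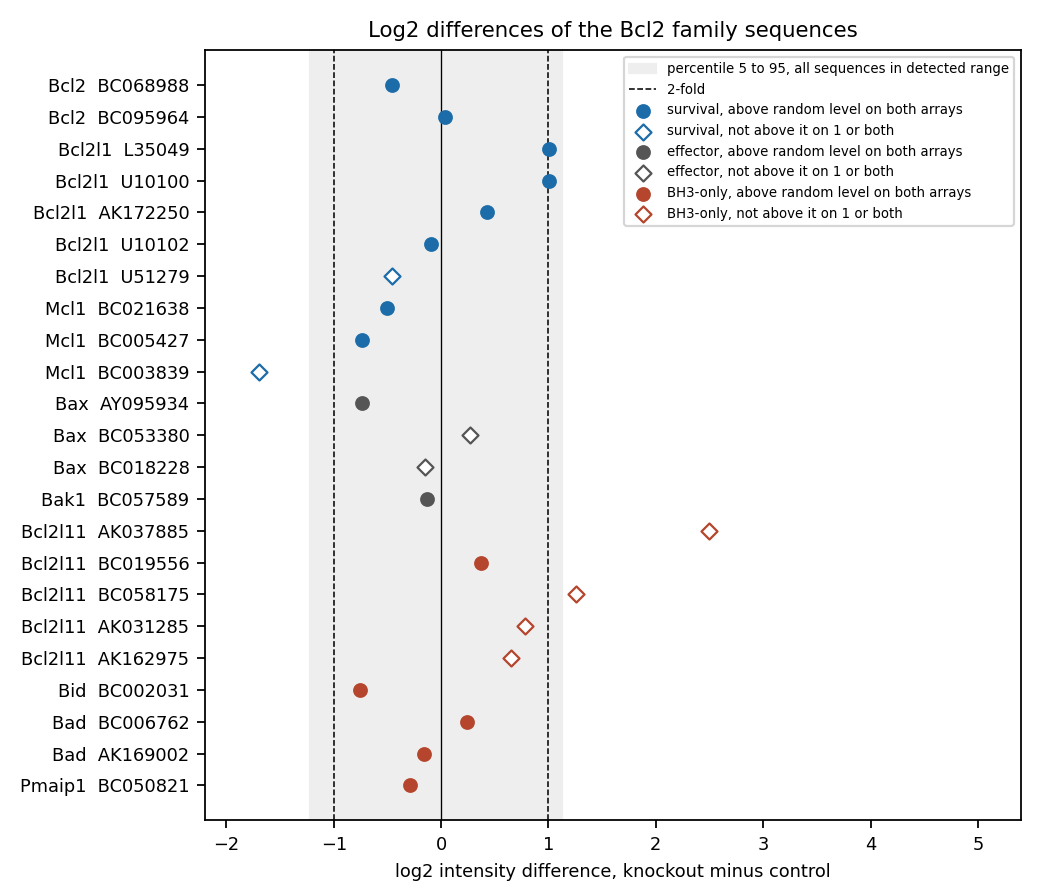
Log2 difference, knockout minus control, of each member sequence, with filled circles where both arrays were above the random level and open diamonds where 1 or both were not. The grey band is percentile 5 to 95 of all sequences in the detected range (-1.22 to 1.13) and dashed lines mark 2-fold. AK037885 and BC058175 of Bcl2l11 and BC003839 of Mcl1 lie outside the band, all as open diamonds, for which the plotted measured difference exceeds the bound given above.

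**Figure D4:**
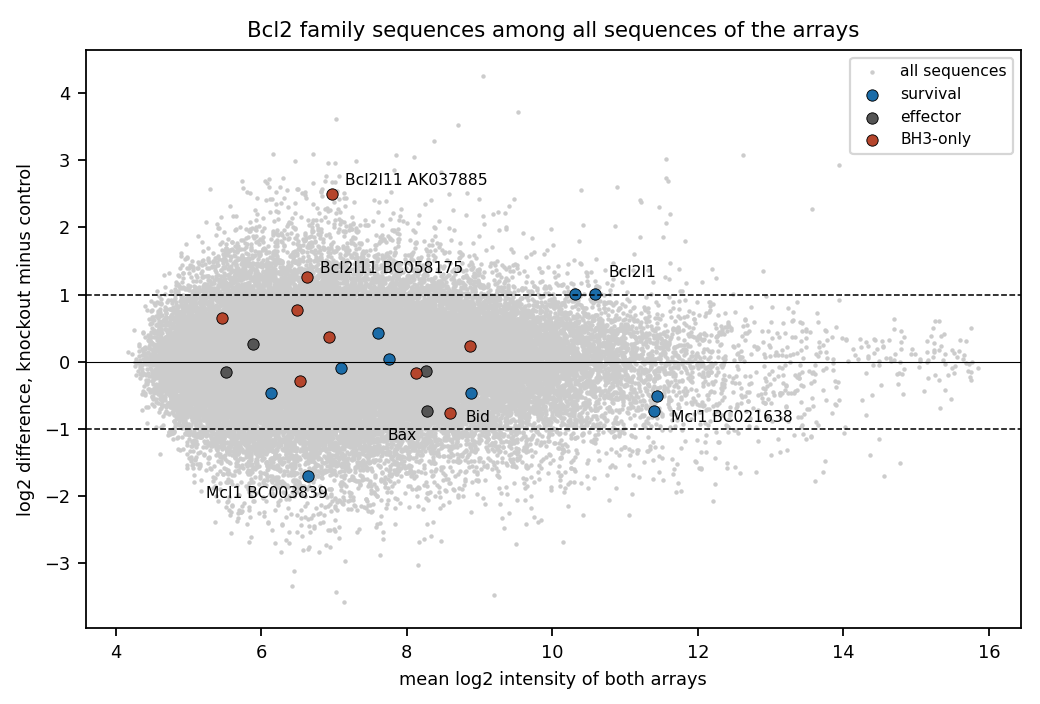
Log2 difference, knockout minus control, against mean log2 intensity for all 44170 sequences (grey) and the members (coloured by role). The pair of bright Bcl2l1 sequences lies at 1.002 and 1.003, near the upper edge of the grey cloud at that intensity; the outlying Bcl2l11 and Mcl1 sequences lie among dim sequences, where the cloud is wide.

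Genes that work with the family were read from 6 lists of 85 genes. Of the 61 in the detected range, 31 were higher and 30 lower in the knockout, and by 2-fold or more 2 were higher and 3 lower (8.20% together), where 13.7% of all genes in the detected range differed by 2-fold or more. Of these 5 genes, 3 entered the range only through the array on which they were higher (Bcl2a1d through the knockout, Bcl2l13 and Eda2r through the control), so they had to differ to be counted. Over all genes in that range, 6.41% passed 2-fold upward in the knockout and 7.29% downward. The median over the 61 genes was 0.003.

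Of other Bcl2 relatives, 10 of 19 were in the detected range, 5 higher and 5 lower. Bcl2l13, a mitochondrial relative, was at 125 in the knockout and 396 in the control (-1.67), but its 3 sequences ran from -1.67 to 0.78. Bcl2a1d, one of several nearly identical copies of the haematopoietic survival gene A1, was at 178 in the knockout and 63.0 in the control, at least 2.49-fold higher. The other copies did not repeat this, with 77.1 and 77.7 for Bcl2a1a, 61.4 and 98.2 for Bcl2a1b, and 94.9 and 70.7 for Bcl2a1c in knockout and control, and probes may not tell the copies apart. Bnip3l, which removes mitochondria from maturing red cells and was picked for this role after its values were seen, was at 1913 in the knockout and 2344 in the control (-0.29), and its other sequence at 137 in the knockout and 102 in the control (0.43).

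Downstream of the mitochondria, 4 of 12 apoptosome and caspase genes in the detected range were higher and 8 lower, none at 2-fold, with a median of -0.15. The largest differences were those of the initiator caspase genes Casp8, at 276 in the knockout and 159 in the control (0.80), and Casp2, at 472 in the knockout and 300.1 in the control (0.65). Of 8 inhibitors of apoptosis, 3 were higher and 5 lower (median -0.10). Birc7, which encodes the inhibitor Livin, was at 339 in the knockout and 161 in the control (1.08), and its other sequence gave 0.95.

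By their brightest sequences, all 5 genes of the death receptor list in the detected range were higher in the knockout, with a median of 0.31. None was at 2-fold, and 51.7% of all genes in that range were higher. One of the 5, the caspase-8 regulator gene Cflar, was at 284 in the knockout and 283 in the control (0.003). Of its 5 sequences, 2 were higher and 3 lower, from -1.60 to 0.16. Ripk1 had 1 of 3 sequences higher and 2 lower, from -0.78 to 0.31. The adaptor gene Fadd was at 613 in the knockout and 431 in the control (0.51), and the receptor gene Tnfrsf25 at 193 in the knockout and 129 in the control (0.59); Tnfrsf25 entered the range only through the knockout array. Over all 10 genes of this list 7 were higher and 3 lower. Of 12 genes in the list of p53 and its targets, 7 were higher and 5 lower (median 0.22). Mdm4, which restrains p53, was at 1401 in the knockout and 2923 in the control (-1.06), with 2 of its 4 sequences higher and 2 lower. Eda2r, a p53-induced receptor, was at 84.4 in the knockout and 203 in the control (-1.26), and only 1.11 times the random level in the knockout. Its 3 sequences ran from -1.85 to 0.13, with 1 higher and 2 lower. The list of regulators of member proteins split evenly, 7 higher and 7 lower, with a median of -0.09. Its largest differences were those of the phosphoprotein-binding adaptor genes Ywhab, at 554 in the knockout and 1010.1 in the control (-0.87), and Ywhae, at 963 in the knockout and 1751 in the control (-0.86). The other sequence of Ywhae differed by only -0.03.

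**Figure D5:**
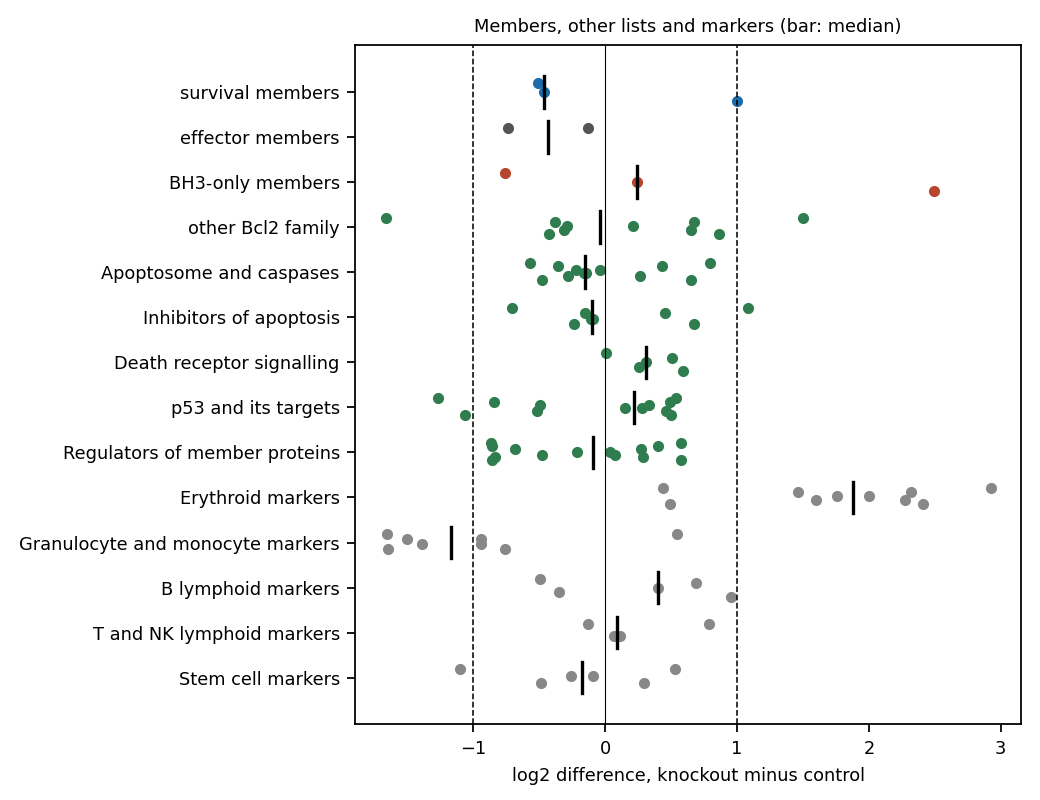
Log2 difference, knockout minus control, of each gene in the detected range by its brightest sequence, for the members by role, the 6 other apoptosis lists and the lineage marker lists (bar: median). The apoptosis lists have medians from -0.15 to 0.31, against 1.88 for erythroid markers and -1.17 for granulocyte and monocyte markers; B lymphoid markers had 0.40, T and NK markers 0.09 and stem cell markers -0.18.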

How the data were processed

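Per the submitters' processing notes, the authors made the deposited intensity values with RMA of a version not given there. Per the file headers, each value is a linear-scale intensity for a sequence on build MM9, and the probe count per sequence is 3 for 44155 of 44170 sequences. A column of error values was not used, because its definition is not given. The 5000 random-sequence probes gave the background level.

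Differences were taken between unscaled log2 intensities as knockout minus control (Python 3.11.15, pandas 2.3.3). Of the sequences, 41886 carried a gene symbol, updated by gene ID from RefSeq where it differed. A gene stood by its sequence with the highest mean log2 value. Where 1 of the 2 values was at or below the random level, the fold given used that level and is a bound. Medians, 2-fold counts and the alternative settings used the measured values instead. The members and lists were chosen with earlier results of these data known. All members were named, and of each list up to 4 genes at 2-fold or more, or else the 2 largest; Zmat3 was not analysed here. Genes with a pattern like a member's cannot be ranked from 1 difference. Counting steps were tested on simulated data. Alternatives were the series table (34219 sequences), scalings, an offset, filters, sizes and choices of sequence. RMA draws array distributions together, so a shift of most genes is not visible, and the number of arrays limits precision.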

Additional observations from a re-analysis of the deposited data

How the results depend on the processing

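No paired analysis was possible because a single array stands for each genotype. The survival and effector medians stayed below 0 over 13 other settings and 1 added after seeing the data (only sequences above the random level on both arrays), from -0.83 to -0.21 for survival and from -0.74 to -0.13 for effectors. Bcl2l1 had a value in 13 of these settings and Bcl2l11 in 12, above 0 in each; neither had one with the dimmest sequence, nor Bcl2l11 with the 75th percentile filter, as their sequences did not pass the filter there. The dimmest Bcl2l1 sequence, U51279, measured -0.46 with the knockout not above the random level. Against 4 member sequences at least 2-fold higher in the knockout, there were 2 with either centring, with the 75th percentile filter or with the added filter, and 1 with an offset of 50 or at 3-fold. Against 1 lower, there were 0 with the series table, the 75th percentile filter or the added filter, and 4 at 1.5-fold. The BH3-only median of 0.24 was -0.024 with no filter and with the added filter, -0.26 with the 75th percentile filter and -0.46 with the dimmest sequence. Its distance of 0.70 from the survival median was 0.20 with the 75th percentile filter and 0.25 with the mean of sequences. Bcl2l1 was at 0.996 and 0.992 with the centrings, 0.97 with the offset and 0.38 with the mean of sequences. Bcl2l11 was at 1.76 with the offset, 1.11 with the mean of sequences and 0.38 with the added filter. Bcl2 turned to 0.03 and Bad to -0.16 with the dimmest sequence. Mcl1 was lower in all 14 settings, from -0.44 to -1.70, the last with the dim sequence BC003839, whose knockout value was not above the random level, and Bid in all 14, from -0.77 to -0.67. But fold sizes and filters cannot change the difference of a given sequence, and the series table holds nearly the same values. Bid has a single sequence, so the choice of sequence cannot change it either. Only the scalings and the offset could move Bid. The median of other Bcl2 relatives (-0.04) was -0.29 with the series table, 0.060 with no filter, 0.21 with a filter at 2 times the random level, 0.13 with the mean of sequences, 0.11 with the dimmest and 0.025 with the added filter. That of inhibitors of apoptosis was 0.29 with the dimmest sequence. That of regulators (-0.09) was 0.057 with no filter, -0.48 with the 75th percentile filter, -0.53 with the dimmest sequence and 0.036 with the added filter. Genes of these lists at 2-fold numbered 2 higher and 3 lower; the higher were 1 with the series table, offset, 75th percentile filter or added filter, 9 at 1.5-fold and 0 at 3-fold, and the lower were 10 at 1.5-fold, 1 at 3-fold and 0 with the mean or dimmest sequence. Stricter sizes and filters count fewer by construction; otherwise the cause was not tested. Closeness to background limits the readings of Pmaip1, most Bcl2l11 sequences and all but 1 of Bax.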
